A study of Mus musculus with 35 samples.

Results

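The adult globin genes are Hba-a1 and Hba-a2, which encode the alpha chains of adult mouse hemoglobin, and Hbb-bs and Hbb-bt, which encode its beta chains. They were taken as the rows of the deposited count table that carry these 4 symbols, of 49671 genes in all, and were followed through 35 RNA-seq libraries, 5 for each of 7 conditions. The libraries were made from bone marrow cells of C57Bl/6 mice, male and female, that lacked mature lineage markers (lin- hematopoietic stem and progenitor cells). Cells were transduced with a lentivirus, sorted for fluorescence and grown for 1 week in a methylcellulose medium that holds myeloid and erythroid growth factors, with GM-CSF added.

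Empty was the vector without a fusion, sorted for mCherry alone. All other cultures were sorted for mCherry and mEGFP and carried an mEGFP-tagged form of NUP98-HOXA9, a leukemia fusion oncoprotein written NHA9 in the study and NHX9 in the labels. It joins the N-terminal part of the nucleoporin NUP98, which is rich in phenylalanine-glycine (FG) motifs, to the DNA-binding homeodomain of HOXA9. G-NHX9 was the fusion itself. G-NHX9-8FA had 8 phenylalanines changed to alanine, and G-NHX9-21FGAA had 21 FG pairs changed to alanines. G-NHX9-midi was a shortened fusion that kept the C-terminal FG motifs of the NUP98 part and lacked its GLEBS domain, G-NHX9-midi-21FGAA had those FG motifs changed to alanines, and G-NHX9-DDNA had mutations in the homeodomain meant to weaken DNA binding. The mice were 8 weeks old in 32 libraries, 9 weeks for Empty 4, 10 weeks for Empty 5 and 11 weeks for G-NHX9 1. These are mixed cultures and not purified red cell precursors, and the cells were not selected for any red cell marker. Nothing in the labels says which libraries came from separate animals, so the p-values measure the spread between these libraries.

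Hemoglobin is a tetramer of a pair of alpha and a pair of beta chains around heme, and red cell precursors make the chains in near-balanced amounts because an excess of free chains is toxic. The alpha genes lie in a cluster on chromosome 11 and the beta genes in a cluster on chromosome 7, each under the control of distal enhancers and of erythroid transcription factors such as GATA1 and KLF1. In each cluster the adult genes are a pair of near-identical copies, while the embryonic members of the clusters are largely silent in adult bone marrow.

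The near-identity of the copies bears on every count below, since a read that lies in a stretch common to 2 genes cannot be assigned to either by its letters. In GENCODE M21 on GRCm38, Hba-a1 (ENSMUSG00000069919) spans chr11:32283511-32284465 and Hba-a2 (ENSMUSG00000069917) chr11:32296489-32297298, both on the plus strand. Hbb-bs (ENSMUSG00000052305) spans chr7:103826534-103828096 and Hbb-bt (ENSMUSG00000073940) chr7:103812524-103813996, both on the minus strand, and no other annotated gene overlaps any of the 4. The coding sequences of Hba-a1 and Hba-a2 differ at 1 of 429 bases and those of Hbb-bs and Hbb-bt at 1 of 444 bases. Outside the coding part the beta copies are less alike, with 46 differences over 626 aligned bases of the transcripts, whereas the alpha copies have 1 difference over 538. Of all stretches of 100 bases in the main transcripts, between 54.8% (Hbb-bt) and 74.5% (Hba-a2) occur letter for letter in the sister copy. The coding stretches around the base that tells each pair of copies apart are shown here because they are the only coding letters that separate them, with that base in capitals. Both are in the last exon, exon 3 of 3, and are written on the coding strand.
Hba-a1, chr11:32284313-32284373: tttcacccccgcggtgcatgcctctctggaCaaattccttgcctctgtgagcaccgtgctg
Hba-a2, chr11:32297130-32297190: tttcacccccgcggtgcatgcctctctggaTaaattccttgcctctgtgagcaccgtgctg
Hbb-bs, chr7:103826665-103826722: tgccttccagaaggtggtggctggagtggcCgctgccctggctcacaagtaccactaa
Hbb-bt, chr7:103812656-103812713: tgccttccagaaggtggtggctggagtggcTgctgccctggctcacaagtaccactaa
Counted from 1 at the start of the coding sequence, the difference is C381T from Hba-a1 to Hba-a2 and C417T from Hbb-bs to Hbb-bt. How reads common to both copies were counted is not given in the sources used here, so the level of a single copy, the ratio between copies and, if such reads were left out, the sum of a pair and the alpha to beta ratio are uncertain.

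The promoters of the pairs were compared because 3 of the 4 genes moved together across the conditions (below). RefSeq promoter sequences on GRCm38.p6 were found for all 4 genes, and the 120 bases before the RefSeq start were used. With both strands searched, each window held CACCC, the motif bound by KLF1 and related factors, and the CCAAT motif. Each also held ATATAA, a form of the TATA box. The letters of these motifs did not overlap one another in any window. CACCC occurs in 31.7% of all 32851 promoter windows of this length, CCAAT in 21.3%, ATATAA in 4.47%, and all of them together in 0.286%. GATA was found in the Hbb-bs window only, and occurs in 29.5% of all windows. The alpha windows were 95.1% identical and the beta windows 74.6%. The stretches of each window that no M21 exon of the gene covers are given with the motifs in capitals.
Hba-a2, chr11:32296372-32296488, plus strand: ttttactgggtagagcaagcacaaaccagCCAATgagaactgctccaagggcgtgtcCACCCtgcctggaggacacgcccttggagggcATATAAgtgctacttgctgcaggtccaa
Hbb-bs, chr7:103827929-103828011, minus strand: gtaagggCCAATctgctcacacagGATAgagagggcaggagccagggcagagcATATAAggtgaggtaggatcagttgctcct
Hbb-bt, chr7:103813997-103814043, minus strand: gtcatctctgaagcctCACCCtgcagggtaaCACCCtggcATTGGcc
ATTGG is CCAAT read from the other strand. The Hbb-bt window held CACCC at 2 places and CCAAT at 3, against 1 place each in Hbb-bs. M21 exons of the same gene cover all 120 bases of the Hba-a1 window, 3 of the Hba-a2 window, 37 of the Hbb-bs window (its CACCC among them) and 73 of the Hbb-bt window. The covered part of the Hbb-bt window holds its ATATAA, 1 of its CCAAT places and part of another. How many other windows hold these motifs at several places was not counted. A motif match describes the letters and was not tested for binding.

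Depth ran from 31559914 to 75810659 total counts, of which the 4 genes took between 0.0021% and 0.159%. Levels are given as TMM-scaled CPM, in which the counts of every library are brought to a common total, and differences as log2 fold changes with their standard errors (SE) from 1 edgeR quasi-likelihood fit to all 35 libraries, with Benjamini-Hochberg adjusted p-values over 17166 genes. The threshold for a call was an adjusted p under 0.05. All 4 members passed the filter on low counts. In 6 of the 7 conditions all 4 genes were below their condition mean in the library numbered 1, and in the other condition, Empty, library 1 was the highest. What else may differ in these libraries was not tested, and results are also given without them. Intervals on counts cover counting error only. In such bulk samples, fewer erythroid cells and less globin RNA per erythroid cell cannot be told apart.

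The first question was whether the fusion itself changed the adult globins against the vector. No change was detected, and all 4 genes were counted in every vector culture. Hba-a1, the more counted alpha copy, was at 95.3, 44.6, 41.2, 29.9 and 57.2 CPM in Empty 1 to 5 and at 25.1, 44.6, 35.3, 52.1 and 74.7 CPM in G-NHX9 1 to 5. Hba-a2, the other alpha copy, was at 32.8, 12.5, 13, 14.2 and 28.2 CPM in Empty and at 8.14, 15.9, 15.0, 24.8 and 44.4 CPM in G-NHX9. The conditions overlapped for both alpha genes, with Empty 1 the highest of its group and G-NHX9 1 the lowest of its own. Hbb-bs, the more counted beta copy, was at 330.2, 151, 137, 104 and 181.5 CPM in Empty and at 74.8, 149, 134, 173 and 194 CPM in G-NHX9. Hbb-bt, the other beta copy, was at 115, 73.5, 54.0, 41.6 and 62.1 CPM in Empty and at 56.5, 82.6, 90.8, 86.2 and 103 CPM in G-NHX9. Again the same 2 libraries stood at opposite ends and the ranges overlapped. The log2 fold changes were -0.21 (SE 0.451) for Hba-a1, 0.11 (SE 0.545) for Hba-a2, -0.32 (SE 0.564) for Hbb-bs and 0.28 (SE 0.319) for Hbb-bt, with adjusted p between 0.56 and 0.91. Of the 4 genes 0 were called by edgeR, 0 had an unadjusted p under 0.05 and 0 were called by DESeq2, in a comparison in which 32.1% of all genes tested were called. The 95% intervals reached from -1.47 (Hbb-bs) to 1.22 (Hba-a2), and the narrowest was that of Hbb-bt (-0.38 to 0.93).

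**Figure D1:**
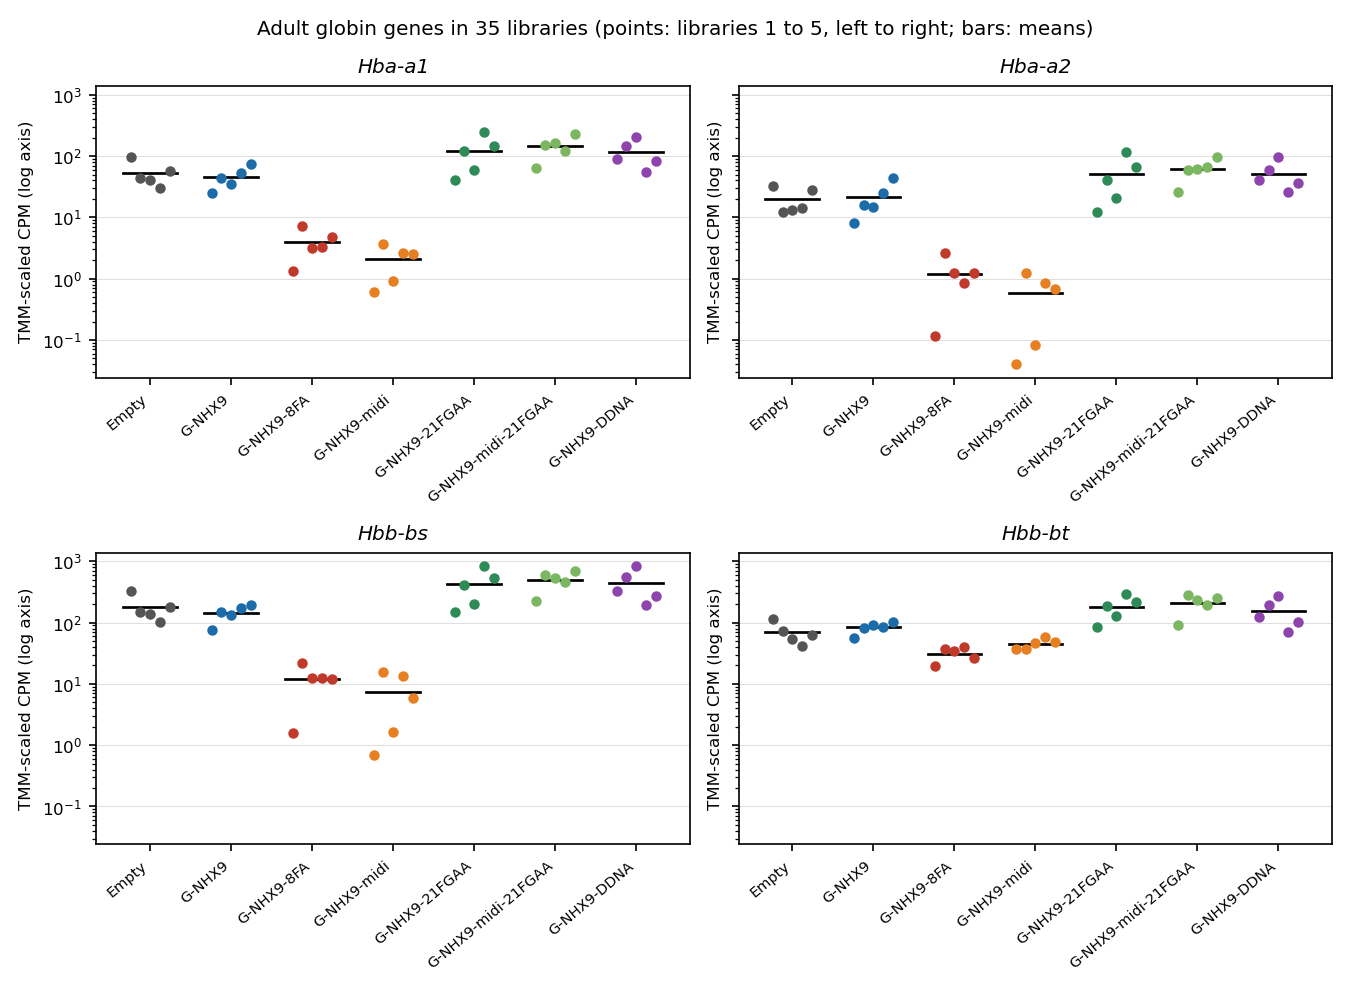
Level of each adult globin gene in every library, as TMM-scaled CPM on a log axis, with 1 point per library (replicates 1 to 5 from left to right) and a bar at the mean of each condition. Hba-a1, Hba-a2 and Hbb-bs fall to means of 12.1 CPM or less in G-NHX9-8FA and G-NHX9-midi, while Hbb-bt keeps means of 31.3 and 45.5 CPM there.

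In G-NHX9-8FA and G-NHX9-midi, both alpha genes and Hbb-bs were nearly lost and Hbb-bt was not. Hba-a1 was at 1.33, 7.26, 3.19, 3.31 and 4.80 CPM in G-NHX9-8FA and at 0.598, 3.66, 0.92, 2.65 and 2.53 CPM in G-NHX9-midi. Hba-a2 was at 0.117, 2.62, 1.23, 0.847 and 1.22 CPM in G-NHX9-8FA and at 0.0399, 1.26, 0.0818, 0.856 and 0.68 CPM in G-NHX9-midi. These alpha levels rest on few counts, between 2 and 143 for Hba-a2 and between 30 and 397 for Hba-a1, and every library lay below every Empty library. Hbb-bs was at 1.61, 21.9, 12.6, 12.5 and 11.9 CPM in G-NHX9-8FA and at 0.697, 15.6, 1.62, 13.2 and 5.93 CPM in G-NHX9-midi, again below all of Empty. Replicate 1 was the lowest library of both conditions for these 3 genes, and replicate 2 the highest.

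Against Empty, the log2 fold change in G-NHX9-8FA was -3.75 (SE 0.513) for Hba-a1, -4.03 (SE 0.647) for Hba-a2 and -3.90 (SE 0.637) for Hbb-bs, or 13.4-, 16.3- and 14.9-fold lower, with adjusted p of 1.2e-06, 1.5e-05 and 1.9e-05. In G-NHX9-midi it was -4.73 (SE 0.546), -5.20 (SE 0.712) and -4.63 (SE 0.663), or 26.5-, 36.8- and 24.7-fold lower, with adjusted p of 2.1e-08, 4.5e-07 and 9.8e-07. All 4 members were called lower in G-NHX9-8FA, where 13.2% of all genes tested were called lower, and 3 in G-NHX9-midi, where 20.0% were. Their libraries did not overlap those of Empty for 4 members in G-NHX9-8FA (8.75% of all genes tested were lower without overlap) and for 3 in G-NHX9-midi (13.9%). The median log2 fold change of the members was -3.82 and -4.68, beside 0.03 and 0.02 over all genes tested.

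Against G-NHX9 the picture was the same in size. The log2 fold change in G-NHX9-8FA was -3.54 (SE 0.509) for Hba-a1, -4.13 (SE 0.649) for Hba-a2 and -3.58 (SE 0.628) for Hbb-bs, and in G-NHX9-midi it was -4.52 (SE 0.542), -5.31 (SE 0.713) and -4.31 (SE 0.654), with adjusted p of 1.4e-04 or less. All 4 members were called lower in both comparisons, in which 8.04% and 11.2% of all genes tested were called lower. Between G-NHX9-midi and G-NHX9-8FA, 0 of the 4 genes were called, 0 had an unadjusted p under 0.05 and 0 were called by DESeq2, where 4.25% of all genes tested were called. The differences of G-NHX9-midi from G-NHX9-8FA were -0.98 (95% interval -2.03 to 0.07) for Hba-a1, -1.17 (-2.68 to 0.33) for Hba-a2, -0.73 (-1.93 to 0.47) for Hbb-bs and 0.54 (-0.12 to 1.19) for Hbb-bt.

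**Figure D2:**
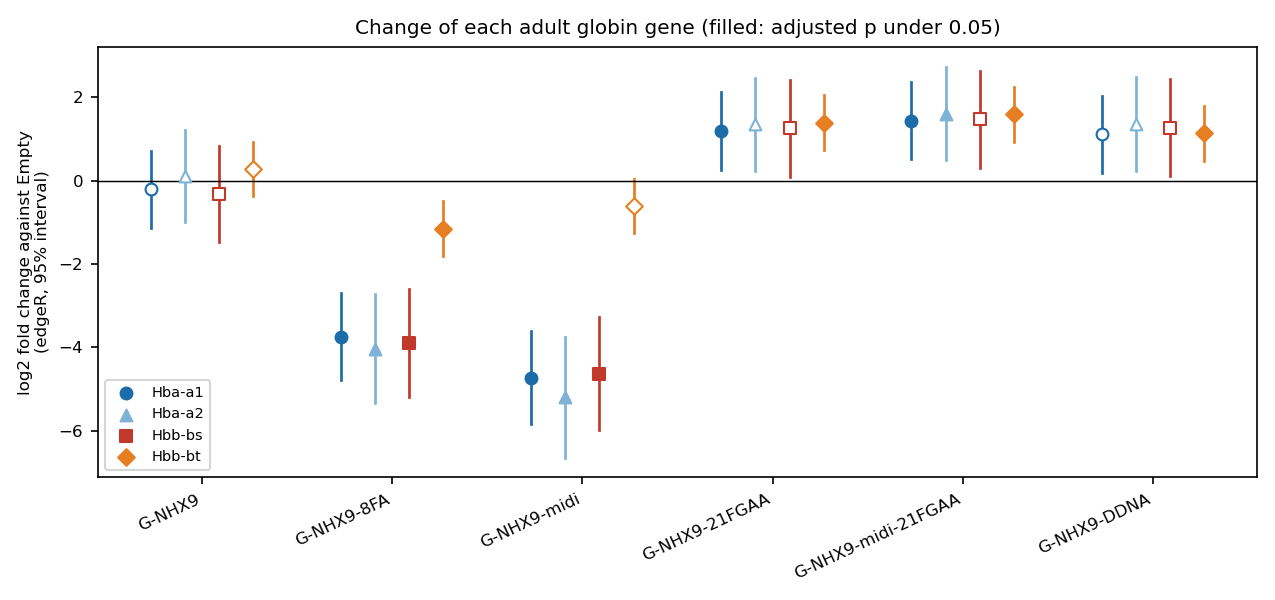
Log2 fold change of each adult globin gene against Empty (edgeR, bars are 95% intervals, filled symbols have an adjusted p under 0.05). In G-NHX9-8FA and G-NHX9-midi the Hbb-bt intervals lie above those of the other 3 genes, and in the 3 constructs to the right all 4 genes lie above 0.

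Hbb-bt behaved differently from its sister copy in these conditions. It was at 19.7, 36.5, 34.0, 39.8 and 26.4 CPM in G-NHX9-8FA and at 37.5, 37.3, 46.8, 58.1 and 47.7 CPM in G-NHX9-midi. All G-NHX9-8FA libraries were below all Empty libraries, and 2 of the 5 G-NHX9-midi libraries were. In counts, Hbb-bt was at 1880 and Hbb-bs at 35 in G-NHX9-midi 1, and at 846 and 69 in G-NHX9-8FA 1. Hbb-bt fell by 1.15 (SE 0.324) in G-NHX9-8FA against Empty (2.21-fold, adjusted p = 0.0080) and its value in G-NHX9-midi was -0.61 (SE 0.321, 95% interval -1.26 to 0.05, adjusted p = 0.13). The G-NHX9-midi difference passed the threshold when only the 2 conditions were fitted (-0.63, adjusted p = 0.049). Against G-NHX9, Hbb-bt fell by 1.42 (SE 0.326, adjusted p = 0.0028) in G-NHX9-8FA and by 0.88 (SE 0.322, adjusted p = 0.05 as rounded, just under the threshold) in G-NHX9-midi. The last call was lost without G-NHX9 2, 3, 4 or 5 or without G-NHX9-midi 1, 2, 3 or 5, with adjusted p from 0.067 to 0.12. It was also lost with no filter on low counts (adjusted p = 0.058).

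The difference between the beta copies was itself tested as the ratio of their counts in each library, by an exact two-sided permutation test of the mean log2 ratio with p-values adjusted over the 13 comparisons. Hbb-bs to Hbb-bt was 2.87, 2.05, 2.54, 2.49 and 2.92 in Empty and 1.33, 1.80, 1.48, 2.01 and 1.88 in G-NHX9, without overlap. It was 0.0816, 0.601, 0.372, 0.313 and 0.451 in G-NHX9-8FA and 0.0186, 0.418, 0.0345, 0.227 and 0.124 in G-NHX9-midi, so Hbb-bt held more counts than Hbb-bs in all 10 libraries of these conditions and in no other library. The ratio was 8.43-fold lower in G-NHX9-8FA than in Empty and 27.0-fold lower in G-NHX9-midi (each exact permutation p = 0.0079, the smallest that 5 against 5 libraries allow, adjusted p = 0.013). It was 1.52-fold lower in G-NHX9 than in Empty (exact permutation p = 0.0079, adjusted p = 0.013), although neither beta gene was called changed there. Across the constructs it was 5.54-fold lower in G-NHX9-8FA than in G-NHX9 and 17.7-fold lower in G-NHX9-midi than in G-NHX9, each with the same p. The ratio was 1.66-fold higher in G-NHX9-DDNA than in G-NHX9, also with that p. With that p too, G-NHX9-midi-21FGAA was 25.3-fold above G-NHX9-midi and G-NHX9-21FGAA 7.12-fold above G-NHX9-8FA. G-NHX9-21FGAA, G-NHX9-midi-21FGAA and G-NHX9-DDNA did not pass against Empty (exact permutation, adjusted p 0.25 to 0.41). Nor did G-NHX9-21FGAA against G-NHX9 (0.15). Between G-NHX9-midi and G-NHX9-8FA the conditions overlapped (exact permutation p = 0.13, adjusted p = 0.18).

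**Figure D3:**
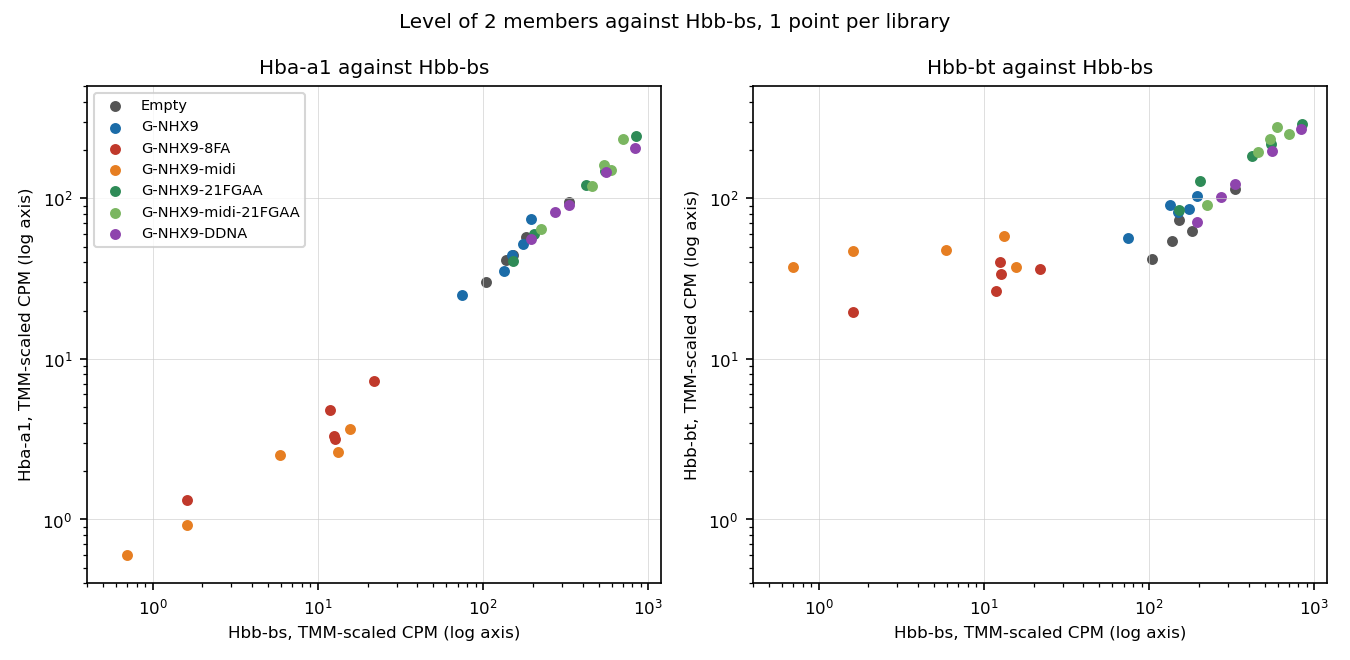
Hba-a1 (left) and Hbb-bt (right) against Hbb-bs, all as TMM-scaled CPM on log axes, with 1 point per library coloured by condition. Hba-a1 follows Hbb-bs through the whole range, whereas Hbb-bt stays between 19.7 and 58.1 CPM in the G-NHX9-8FA and G-NHX9-midi libraries, in which Hbb-bs is at 21.9 CPM or lower.

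Straight lines through the 35 libraries were drawn as a description. The line of Hbb-bt on Hbb-bs had an intercept of 31.6 CPM and a slope of 0.322, while that of Hba-a1 on Hbb-bs had an intercept of 2.01 CPM and that of Hba-a2 on Hba-a1 an intercept of -1.25 CPM. Lines of Hbb-bt on Hbb-bs within single conditions differed. Their intercepts ran from 14 CPM (Empty) to 58.7 CPM (G-NHX9-21FGAA), and their slopes from 0.271 (G-NHX9-midi) to 0.86 (G-NHX9-8FA). In log2 CPM over the 35 libraries, Pearson's r was 0.992 between Hba-a1 and Hba-a2, 0.991 between Hba-a1 and Hbb-bs and 0.994 between Hba-a2 and Hbb-bs, but 0.863, 0.841 and 0.852 between Hbb-bt and these genes in that order. Libraries of 1 condition share its level and each library shares its depth, and after the mean of each condition was subtracted the r of Hbb-bt with the others was 0.777, 0.657 and 0.684, beside 0.938 to 0.961 among the other 3 genes. Per kilobase of exon, the mean level in Empty was 235 CPM for Hbb-bs, 98.5 for Hbb-bt, 66.1 for Hba-a1 and 30.2 for Hba-a2. In G-NHX9-midi the order on this scale was Hbb-bt with 64.7, Hbb-bs with 9.64, Hba-a1 with 2.55 and Hba-a2 with 0.875. On which bases of Hbb-bt the reads fell cannot be read from counts per gene.

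**Figure D4:**
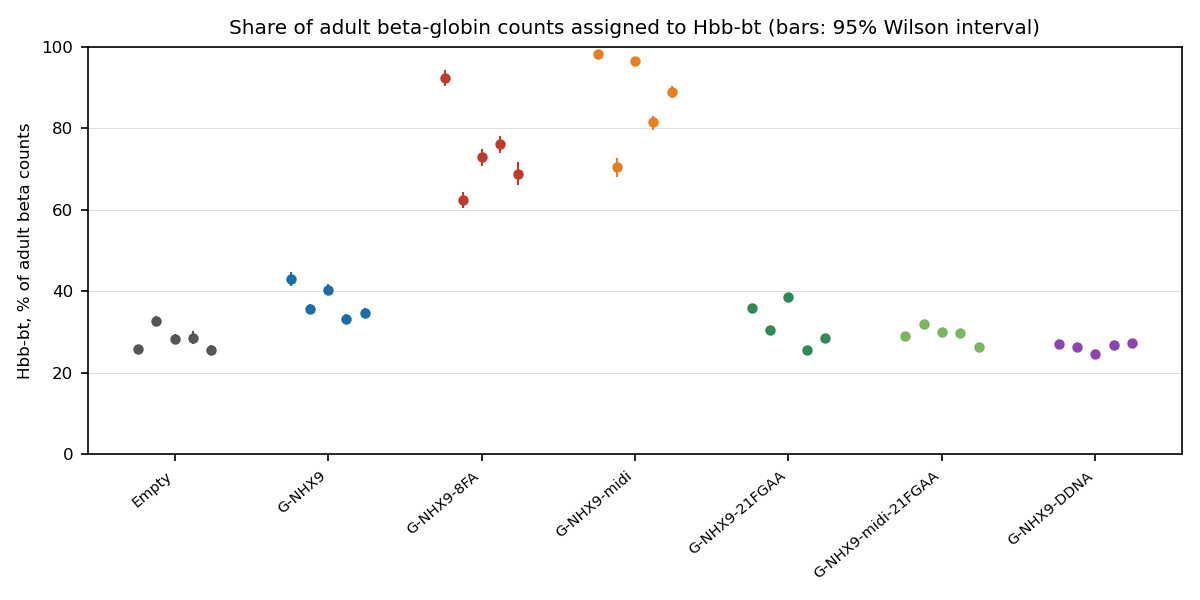
Share of the adult beta-globin counts assigned to Hbb-bt in each library, in percent, with 1 point per library (replicates 1 to 5 from left to right) and 95% Wilson intervals for counting error. The share is between 24.6% and 43.0% in 5 conditions, between 62.5% and 92.5% in G-NHX9-8FA and between 70.5% and 98.2% in G-NHX9-midi.

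The constructs with 21 FG pairs removed or with the changed homeodomain had the highest globin levels. Hba-a1 was at 40.8, 120.5, 59.5, 245 and 148 CPM in G-NHX9-21FGAA, at 64.6, 151, 162, 119.6 and 233 CPM in G-NHX9-midi-21FGAA and at 90.4, 145, 205, 55.4 and 82.6 CPM in G-NHX9-DDNA. Hba-a2 was at 12.3, 40.9, 20.7, 116 and 65.9 CPM in G-NHX9-21FGAA, at 25.5, 59.7, 61.2, 65.9 and 95.5 CPM in G-NHX9-midi-21FGAA and at 40.2, 58.8, 96.6, 25.7 and 36.1 CPM in G-NHX9-DDNA. G-NHX9-21FGAA 1 and 4 were the lowest and highest libraries of that condition, and each condition overlapped Empty for both alpha genes. Hbb-bs was at 152, 417, 205, 846.5 and 543 CPM in G-NHX9-21FGAA, at 223, 591, 542, 454 and 699 CPM in G-NHX9-midi-21FGAA and at 330.5, 554, 826, 194 and 271 CPM in G-NHX9-DDNA. Hbb-bt was at 84.8, 183.5, 128, 292 and 217 CPM in G-NHX9-21FGAA, at 91.3, 278, 233, 193 and 250.4 CPM in G-NHX9-midi-21FGAA and at 123, 197, 269, 70.7 and 102 CPM in G-NHX9-DDNA. For the beta genes too, part of the libraries of each construct lay within the Empty range, which ran up to 330.2 CPM for Hbb-bs and 115 CPM for Hbb-bt.

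Against Empty, Hbb-bt rose in all 3 constructs, by 1.39 (SE 0.324, adjusted p = 0.0018) in G-NHX9-21FGAA, by 1.59 (SE 0.326, adjusted p = 0.0015) in G-NHX9-midi-21FGAA and by 1.14 (SE 0.323, adjusted p = 0.014) in G-NHX9-DDNA, which is 2.61-, 3.02- and 2.20-fold. Hba-a1 rose by 1.19 (SE 0.455, adjusted p = 0.049) in G-NHX9-21FGAA and by 1.44 (SE 0.458, adjusted p = 0.028) in G-NHX9-midi-21FGAA, and Hba-a2 rose by 1.61 (SE 0.553, adjusted p = 0.042) in G-NHX9-midi-21FGAA. The other differences were of like size, between 1.11 and 1.47, and did not pass the threshold (adjusted p from 0.067 to 0.12). So 2, 3 and 1 of the 4 genes were called higher, beside 14.7%, 9.59% and 9.85% of all genes tested. The median log2 fold change of the members was 1.31, 1.53 and 1.20, beside -0.02, -0.02 and -0.01 over all genes tested.

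These rises depended on single libraries, apart from that of Hbb-bt in G-NHX9-21FGAA and G-NHX9-midi-21FGAA, which was called whichever library was left out. The Hba-a1 rise in G-NHX9-21FGAA was lost without Empty 2, 3, 4 or 5 or without G-NHX9-21FGAA 2, 4 or 5 (adjusted p 0.064 to 0.23), with no filter on low counts (0.053) and in a fit to the 2 conditions alone (0.063). The Hba-a1 rise in G-NHX9-midi-21FGAA was lost without Empty 2, 3 or 4 or without G-NHX9-midi-21FGAA 3 or 5 (adjusted p 0.05 to 0.086), and the Hba-a2 rise without Empty 2, 3 or 4 or without G-NHX9-midi-21FGAA 2, 3, 4 or 5 (adjusted p 0.055 to 0.11) and by DESeq2 (0.065). The Hbb-bt rise in G-NHX9-DDNA was lost without G-NHX9-DDNA 3 (adjusted p = 0.084). In the other direction, without Empty 1, the vector library with the most globin RNA, 4 genes were called in G-NHX9-21FGAA and G-NHX9-midi-21FGAA and 2 in G-NHX9-DDNA. Without all 7 libraries numbered 1, a choice made after their levels were seen, 4 were called in each of the 3 constructs. Without the 3 libraries from mice over 8 weeks old, also chosen later, 1, 1 and 0 were called. The shares of all genes tested given above are from the fit to all 35 libraries and cannot be set beside these counts.

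G-NHX9-midi-21FGAA stood far above G-NHX9-midi, its form without the FG changes. G-NHX9-21FGAA stood far above G-NHX9-8FA, itself an FG mutant, and less far above the unmutated G-NHX9. The difference of G-NHX9-midi-21FGAA from G-NHX9-midi was 6.17 (SE 0.578) for Hba-a1, 6.81 (SE 0.743) for Hba-a2, 6.10 (SE 0.708) for Hbb-bs and 2.20 (SE 0.333) for Hbb-bt. The difference of G-NHX9-21FGAA from G-NHX9-8FA was 4.94 (SE 0.539), 5.37 (SE 0.676), 5.16 (SE 0.675) and 2.53 (SE 0.338) in the same order. All 4 genes were called higher in both comparisons, with adjusted p of 2.0e-06 or less and no overlap of libraries, where 21.0% and 15.3% of all genes tested were called higher and 14.2% and 10.4% were higher without overlap. Against G-NHX9, Hba-a1 rose by 1.40 (SE 0.458, adjusted p = 0.030) and Hbb-bt by 1.11 (SE 0.322, adjusted p = 0.013) in G-NHX9-21FGAA, and Hba-a1 by 1.32 (SE 0.457, adjusted p = 0.035) and Hbb-bs by 1.58 (SE 0.577, adjusted p = 0.046) in G-NHX9-DDNA. That is 2 of 4 genes in each, beside 8.91% and 10.7% of all genes tested. The labels' replicate numbers paired the libraries of both of these comparisons, and a fit blocked by that number also called Hbb-bs in G-NHX9-21FGAA (1.5, adjusted p = 0.041) and all 4 genes in G-NHX9-DDNA. In G-NHX9-21FGAA, the Hba-a1 call was lost without G-NHX9 1, 2 or 3 or without G-NHX9-21FGAA 4 or 5 (adjusted p 0.055 to 0.15), and the Hbb-bt call without G-NHX9-21FGAA 4 (adjusted p = 0.063). In G-NHX9-DDNA, the calls of Hba-a1 and Hbb-bs were lost without G-NHX9 1, 2, 3 or 4 or without G-NHX9-DDNA 2 or 3 (adjusted p 0.052 to 0.16), and all 4 genes were called without G-NHX9 5. The shares of all genes tested given here are from the fit to all libraries without the block.

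Ordered by mean level, G-NHX9-midi-21FGAA was the highest condition and G-NHX9-21FGAA and G-NHX9-DDNA followed for all 4 genes. Empty and G-NHX9 came next, and the lowest were G-NHX9-8FA and G-NHX9-midi. For Hba-a1, Hba-a2 and Hbb-bs the only neighbours in this order whose libraries did not overlap were the upper 5 conditions against G-NHX9-8FA. For Hbb-bt all neighbours overlapped, and its lowest condition was G-NHX9-8FA, not G-NHX9-midi.

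The balance of alpha to beta was taken as the counts of Hba-a1 and Hba-a2 over the counts of Hbb-bs and Hbb-bt in each library. The ratio was 0.288, 0.254, 0.283, 0.303 and 0.351 in Empty and 0.253, 0.262, 0.224, 0.296 and 0.400 in G-NHX9. It was 0.225, 0.269, 0.241, 0.317 and 0.281 in G-NHX9-21FGAA, 0.287, 0.242, 0.288, 0.287 and 0.346 in G-NHX9-midi-21FGAA and 0.288, 0.272, 0.276, 0.307 and 0.318 in G-NHX9-DDNA. These 5 conditions overlapped one another and their means lay between 0.267 ± 0.036 (SD, n = 5, G-NHX9-21FGAA) and 0.296 ± 0.0355 (SD, n = 5, Empty), although the summed level of the 4 genes ran from 164.5 to 1499 CPM. Divided by exon length, the medians of the ratio were between 0.254 and 0.284 in the same conditions, with the same uncertainty from reads common to both copies.

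**Figure D5:**
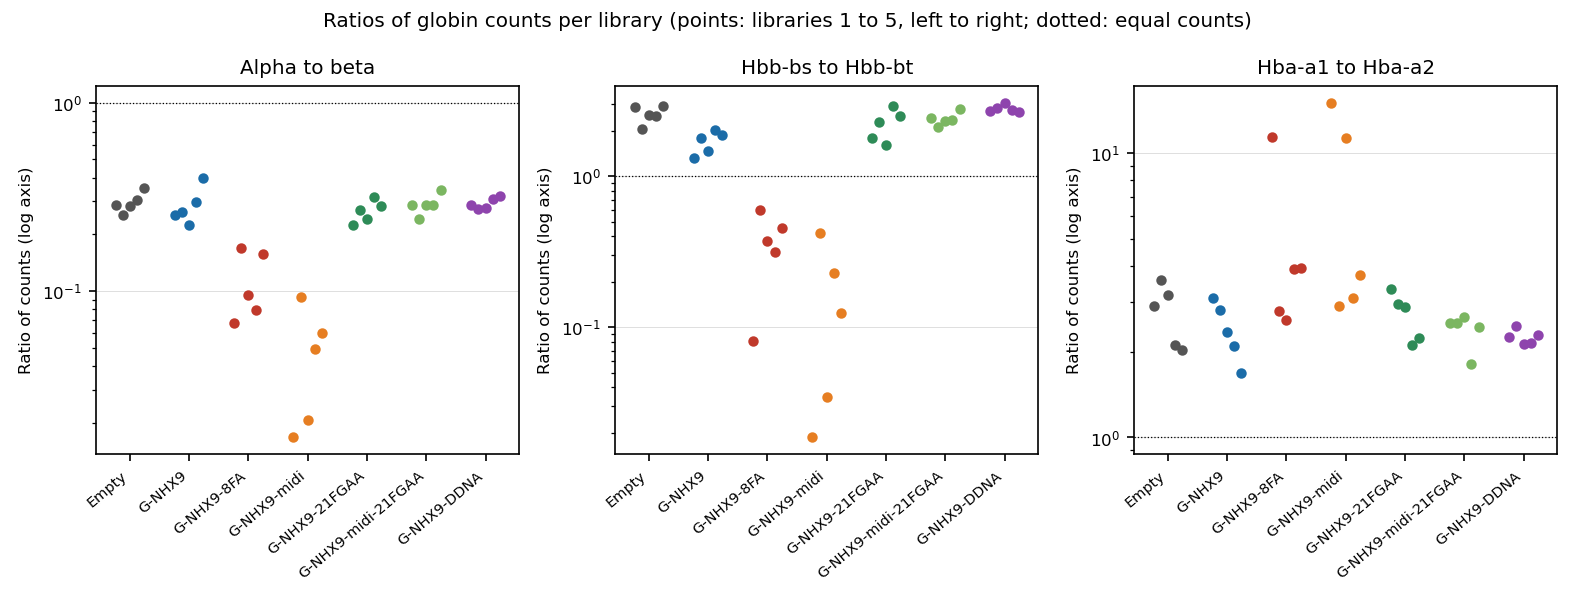
Ratios of globin counts in each library on log axes: alpha to beta, Hbb-bs to Hbb-bt and Hba-a1 to Hba-a2, with 1 point per library (replicates 1 to 5 from left to right) and a dotted line at equal counts. Alpha to beta and Hbb-bs to Hbb-bt fall in G-NHX9-8FA and G-NHX9-midi, and Hbb-bs to Hbb-bt lies below 1 there and above 1 elsewhere.

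In G-NHX9-8FA the alpha to beta ratio was 0.0678, 0.169, 0.0948, 0.0795 and 0.157, and in G-NHX9-midi it was 0.0167, 0.0931, 0.0207, 0.0491 and 0.0599. All 10 values were below those of every library of the other conditions. Against Empty the ratio was 2.77-fold lower in G-NHX9-8FA and 7.47-fold lower in G-NHX9-midi (each exact permutation p = 0.0079, adjusted p = 0.017). Against G-NHX9 it was 2.65- and 7.14-fold lower, and it was 7.31-fold higher in G-NHX9-midi-21FGAA than in G-NHX9-midi and 2.49-fold higher in G-NHX9-21FGAA than in G-NHX9-8FA, with the same p-values. The last call was lost without G-NHX9-21FGAA 4 (exact permutation, adjusted p = 0.052). The call of G-NHX9-8FA against Empty was lost without the libraries from mice over 8 weeks, a set chosen after seeing the data. The 7 other comparisons had adjusted p between 0.059 and 0.88, among them the 4 of the remaining constructs with Empty, whose differences were between -0.15 and -0.01 on the log2 scale. The ratio in G-NHX9-midi was 2.7-fold lower than in G-NHX9-8FA (exact permutation p = 0.032, adjusted p = 0.059), and this passed without G-NHX9-midi 2 (adjusted p = 0.015).

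The lower alpha to beta ratio depended on the counts of Hbb-bt. With Hba-a1 set against Hbb-bs alone, the ratio was between 0.249 and 0.384 in the libraries of the 5 other conditions, between 0.253 and 0.826 in G-NHX9-8FA and between 0.200 and 0.857 in G-NHX9-midi. The difference from Empty was then 0.33 in G-NHX9-8FA and 0.42 in G-NHX9-midi on the log2 scale, of the opposite sign, and was not significant (exact permutation, adjusted p = 0.59 for both). The highest of these values came from the libraries with the fewest counts, G-NHX9-8FA 1 with 57 counts of Hba-a1 over 69 of Hbb-bs and G-NHX9-midi 1 with 30 over 35.

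Counts of Hba-a1 exceeded those of Hba-a2 in every library. Of the stretches of 100 bases, 339 of 600 in Hba-a1 and 339 of 455 in Hba-a2 occur in the sister copy. How far this difference in length that can be told apart sets the ratio was not tested. The Hba-a1 to Hba-a2 ratio was 2.91, 3.58, 3.17, 2.11 and 2.03 in Empty, 3.09, 2.80, 2.35, 2.10 and 1.68 in G-NHX9 and 3.31, 2.95, 2.87, 2.11 and 2.25 in G-NHX9-21FGAA. It was 2.53, 2.52, 2.65, 1.82 and 2.44 in G-NHX9-midi-21FGAA and 2.25, 2.47, 2.13, 2.15 and 2.29 in G-NHX9-DDNA. In Empty, G-NHX9 and G-NHX9-21FGAA the libraries numbered 4 and 5 lay below those numbered 1 to 3. Over the 5 conditions, the medians were 2.91, 2.80 and 2.65 in libraries 1, 2 and 3 and 2.11 and 2.25 in libraries 4 and 5, and what the numbers stand for is not given in the labels. In G-NHX9-8FA the ratio was 11.4, 2.78, 2.60, 3.91 and 3.93, and in G-NHX9-midi 15.0, 2.90, 11.3, 3.09 and 3.73, with 5, 2 and 4 counts of Hba-a2 behind the 3 values above 10. Of the 13 comparisons, 0 passed the exact permutation test after adjustment (adjusted p between 0.10 and 0.93), and 2 had an unadjusted exact permutation p under 0.05 (0.016 for G-NHX9-midi against G-NHX9 and 0.0079 for G-NHX9-midi-21FGAA against G-NHX9-midi).

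The genes most like the adult globins were red cell genes. Taken over tested genes whose mean reached 5 CPM, the 5 with the highest Pearson's r to the mean log2 CPM of the 4 members over 35 libraries were Alas2, the erythroid enzyme that starts heme synthesis (0.994), Slc4a1, the band 3 anion exchanger (0.989), Sptb, erythroid beta spectrin (0.974), Klf1, the erythroid transcription factor (0.968), and Ank1, erythrocyte ankyrin (0.966). With the mean of each condition subtracted, Alas2 (0.982), Slc4a1 (0.932) and Sptb (0.787) were again the closest, followed by Nde1 (0.784) and Cmc2 (0.763).

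A list of 22 erythroid genes without globins moved in the same directions as the members. Against Empty, 1 of 22 was called higher and 0 lower in G-NHX9, 0 higher and 20 lower in G-NHX9-8FA, and 0 higher and 19 lower in G-NHX9-midi. In G-NHX9-21FGAA, G-NHX9-midi-21FGAA and G-NHX9-DDNA, 17, 18 and 10 were called higher and 0 lower. Of all genes tested in the same fit with TMM scaling, 32.1% were called in G-NHX9. In G-NHX9-8FA and G-NHX9-midi 13.2% and 20.0% were called lower, and in the last 3 constructs 14.7%, 9.59% and 9.85% were called higher. The median log2 fold changes of the list were -0.21, -4.34, -4.50, 1.32, 1.50 and 1.14 in the order given. Slc4a1 fell from 24.3 CPM in Empty to 0.765 in G-NHX9-8FA and 0.534 in G-NHX9-midi, with log2 fold changes of -4.95 (SE 0.679) and -5.60 (SE 0.719) and edgeR adjusted p of 1.3e-06 and 1.5e-07. The gene called in G-NHX9 was Car1, a carbonic anhydrase of early erythroid cells, which rose by 2.61 (SE 0.427) from a mean of 0.862 CPM in Empty to 5.37 CPM, with an edgeR adjusted p of 1.5e-05. Cldn13 was at or under 3 counts in every G-NHX9-8FA and G-NHX9-midi library and at 2.87 CPM in Empty. The count in G-NHX9-DDNA ranged from 2 (without G-NHX9-DDNA 3) to 18 (without Empty 1) as single libraries were left out, it was also 6 or fewer without Empty 2, 3, 4 or 5 or G-NHX9-DDNA 1 or 2, and it was 20 without all libraries numbered 1 and 18 without TMM scaling. The count in G-NHX9-21FGAA was 11 without G-NHX9-21FGAA 4 or 5, and that in G-NHX9 was 2 (1 higher, 1 lower) without Empty 4 or 5 or G-NHX9 5. The shares above are from the TMM fit to all 35 libraries and cannot be set beside these counts.

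Set against the summed CPM of these 22 genes, Hba-a1, Hba-a2 and Hbb-bs together had medians of 1.81 to 1.98 CPM per erythroid CPM in the 5 other conditions, 0.798 in G-NHX9-8FA and 0.451 in G-NHX9-midi, and Hbb-bt had medians of 0.475 to 0.835, 1.65 and 2.24. In G-NHX9-8FA and G-NHX9-midi, 12.8 of 20.9 and 14.6 of 21.9 summed CPM came from Bpgm, the enzyme that makes 2,3-bisphosphoglycerate, whose change from Empty did not pass the test (-0.41 and -0.22, edgeR adjusted p = 0.14 and 0.40). So most of the sum in these conditions came from a single gene that did not pass the test.

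Genes that serve hemoglobin assembly and heme synthesis differed among themselves. Of 14 such genes tested, 1 was called higher and 2 lower in G-NHX9, 0 and 4 in G-NHX9-8FA, 1 and 4 in G-NHX9-midi, and 5, 5 and 4 higher and 0 lower in G-NHX9-21FGAA, G-NHX9-midi-21FGAA and G-NHX9-DDNA. In G-NHX9, 32.1% of all genes tested were called. In G-NHX9-8FA and G-NHX9-midi 13.2% and 20.0% were called lower, and the shares called higher there are not given. In the last 3 constructs 14.7%, 9.59% and 9.85% were called higher. Without TMM scaling 9, 11 and 7 of the 14 were called in these 3 constructs. The shares above are from the fit with TMM and cannot be set beside these counts. Without it the median log2 fold change of all genes tested was 0.16, 0.12 and 0.12. The median log2 fold changes of the list lay between -0.24 and 0.36. Ahsp, the alpha chain chaperone, was not analysed here. Alas2 had log2 fold changes of -4.84 (SE 0.675) in G-NHX9-8FA and -5.35 (SE 0.711) in G-NHX9-midi (edgeR adjusted p = 1.7e-06 and 2.7e-07), from 12.2 CPM in Empty to 0.404 and 0.320 CPM. Fech, the ferrochelatase that inserts iron, had log2 fold changes of -0.61 (SE 0.12) and -0.72 (SE 0.121) with edgeR adjusted p of 2.2e-04 and 1.2e-05, from 49.1 to 32.1 and 29.8 CPM. Cpox, coproporphyrinogen oxidase, rose by 0.98 (SE 0.189), 0.96 (SE 0.188) and 0.72 (SE 0.188) in G-NHX9-21FGAA, G-NHX9-midi-21FGAA and G-NHX9-DDNA (edgeR adjusted p = 2.8e-04, 0.0012 and 0.0082). In a fit blocked by replicate number, which paired the libraries of this comparison, 8 rather than 5 were called in G-NHX9-midi-21FGAA. That count was 8 without Empty 1 and 9 without G-NHX9-midi-21FGAA 1, and the count in G-NHX9 was 1 without Empty 3. No share of all genes called was taken in the blocked fit or in the fits without a library.

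Of 18 transcription factors and cofactors of the globin loci, 4 were called higher and 1 lower in G-NHX9, 3 and 7 in G-NHX9-8FA, 3 and 8 in G-NHX9-midi, 9 and 1 in G-NHX9-21FGAA, 6 and 1 in G-NHX9-midi-21FGAA, and 6 and 0 in G-NHX9-DDNA. These counts stand beside 32.1% of all genes tested called in G-NHX9, 13.2% and 20.0% called lower in G-NHX9-8FA and G-NHX9-midi, and 14.7%, 9.59% and 9.85% called higher in the last 3 constructs. Shares in the opposite direction are not given, so the counts in that direction have none beside them. Without TMM scaling 8 of the 18 were called in G-NHX9, where the median log2 fold change of all genes tested was then 0.19. The share above is from the fit with TMM. Klf1, which activates the adult beta genes, had log2 fold changes of -3.45 (SE 0.423) in G-NHX9-8FA and -3.86 (SE 0.437) in G-NHX9-midi and rose by 1.33 (SE 0.356), 1.42 (SE 0.356) and 1.00 (SE 0.354) in the last 3 constructs, with edgeR adjusted p between 1.4e-08 and 0.049. Gata1, the master regulator of the red cell and megakaryocyte lineages, had log2 fold changes of -1.73 (SE 0.226) and -2.25 (SE 0.232) and rose by 1.24 (SE 0.219), 1.07 (SE 0.218) and 0.80 (SE 0.218) in the same order, with edgeR adjusted p between 2.4e-09 and 0.011. Myb, a factor of progenitor cells, was called higher in all 6 constructs, by 0.64 (SE 0.171) in G-NHX9-midi-21FGAA to 1.97 (SE 0.176) in G-NHX9. Bcl11a, a repressor of embryonic globin genes, rose by 0.97 (SE 0.292) in G-NHX9, 1.57 (SE 0.294) in G-NHX9-21FGAA and 1.02 (SE 0.292) in G-NHX9-DDNA. In a fit blocked by replicate number, which paired the libraries of both comparisons, 8 rather than 5 of the 18 were called in G-NHX9 (5 higher and 3 lower) and 12 rather than 6 in G-NHX9-DDNA (10 higher and 2 lower). The shares above are from the fit without the block and cannot be set beside these counts.

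The embryonic and minor globin genes had low counts. Of 8 such genes, only Hbq1b, a theta-like alpha-cluster gene, was tested, with at most 120 counts in a library. Its log2 fold change was -2.94 (SE 0.56) in G-NHX9-8FA and -3.58 (SE 0.606) in G-NHX9-midi, and it rose by 1.41 (SE 0.41) in G-NHX9-midi-21FGAA (edgeR adjusted p = 1.6e-04, 1.4e-05 and 0.016), from a mean of 0.475 CPM in Empty. Hbb-y, the embryonic epsilon-like gene, had over 3 counts in 12 libraries and up to 74. Hbq1a had over 3 counts in 16 libraries and up to 16. Hbb-bh1 had at most 4 counts, Hba-x and Hbb-bh2 at most 1, and Hbb-bh0 and Hbb-bh3 had 0 in all 35 libraries.

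Markers of other cells moved as well. The summed CPM of 10 megakaryocyte markers had means of 1210 in Empty, 620 in G-NHX9, 365 in G-NHX9-8FA and 220 in G-NHX9-midi, against 1740, 1200 and 1440 in G-NHX9-21FGAA, G-NHX9-midi-21FGAA and G-NHX9-DDNA. For 10 mast cell and basophil markers these means were 2610, 851, 845 and 728, against 3880, 4950 and 3210, and for 6 eosinophil markers 1470, 654, 131 and 56.3, against 1700, 1470 and 1940. For 11 neutrophil markers they were 11800, 12500, 26400 and 17200, against 11600, 9600 and 17100, and for 9 macrophage markers 3170, 1930, 2190 and 1910, against 2110, 2650 and 2340. Single genes of a list did not all follow its sum. In G-NHX9 against Empty, 3 of the 9 macrophage markers were called higher and 2 lower, beside 32.1% of all genes tested called. There Mrc1 fell from a mean of 1360 to 521 CPM while C1qb rose from 0.619 to 5.33 CPM. In G-NHX9-midi against Empty, 2 of the 11 neutrophil markers were called higher and 3 lower, where 20.0% of all genes tested were called lower. The share called higher there is not given. The mast cell and basophil markers were about as low in G-NHX9 (range 688 to 1020) as in G-NHX9-8FA (605 to 958), and the edgeR adjusted p of the 10 genes between these conditions lay between 0.15 and 0.9. The part of these cells in the globin differences was not tested.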

How the data were processed

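RNA was sequenced in 35 libraries of transduced lin- HSPCs, grouped by the genotype in the labels (5 per condition). Per the labels, the authors made stranded total RNA libraries, and their processing notes name STAR 2.7.0d, HTSeq 0.11.2, DESeq2 and the build mm10. No removal of globin RNA is named. The authors deposited whole-number counts per gene without normalization. The setting for reads that match several places is not given in the sources used here. The stated read lengths differ between labels (100 cycles) and paper, and the paper gives transductions in triplicate where the labels give 5 libraries.

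Tests were run with edgeR 4.0.16 under R 4.3.3 (filterByExpr, TMM, glmQLFit and glmQLFTest, Benjamini-Hochberg within each of 13 comparisons), which kept 17166 of 49671 genes. CPM are TMM-scaled, and for correlations 2 counts were added as prior before log2. Ratios of counts were compared by exact two-sided permutation tests (smallest p for 5 against 5 libraries = 0.0079), adjusted over 13 comparisons. Alternatives were other scalings and filters, a replicate block, fits to 2 conditions, DESeq2 1.42.0, globin genes left out of library sizes, and each library left out. The script was tested on simulated data. Sequences came from GENCODE M21 and RefSeq. Figures were drawn in Python 3.11.15 with matplotlib 3.10.9.

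Total counts ran from 31559914 to 75810659, so 3 counts, the limit that a count of 0 allows, are under 0.1 CPM. Replicate numbers counted as pairing where the deviations of all 5 pairs of same-numbered libraries correlated over 0.1, which held in 5 of 13 comparisons (G-NHX9, G-NHX9-midi-21FGAA and G-NHX9-DDNA against Empty, and G-NHX9-21FGAA and G-NHX9-DDNA against G-NHX9). No 2 libraries of a condition were duplicates. The genes named are the 4 members, genes of the lists (heme and hemoglobin assembly, globin transcription factors, other globins and markers of 6 cell types) and the 5 genes most correlated with the members by each of 2 measures. The members and lists were chosen with earlier results of these data known.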

Additional observations from a re-analysis of the deposited data

Results flagged for a closer look

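Of 49 sets of 5 libraries (levels of the 4 genes and 3 ratios in each condition), 2 held a library far from the others by Dixon's test at the 95% level, where chance gives about 1 in 20. The Hba-a1 to Hba-a2 ratio was 11.4 in G-NHX9-8FA 1, beside 2.60 to 3.93 in the other libraries of that condition, and rests on 5 counts of Hba-a2. The same ratio was 1.82 in G-NHX9-midi-21FGAA 4, beside 2.44 to 2.65 in the others.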

How the results depend on the processing

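The falls of Hba-a1, Hba-a2 and Hbb-bs in G-NHX9-8FA and G-NHX9-midi kept their calls under every alternative run. So did the differences of G-NHX9-midi-21FGAA from G-NHX9-midi and of G-NHX9-21FGAA from G-NHX9-8FA, and the Hbb-bs to Hbb-bt differences. Of the rises against Empty, that of Hbb-bt in G-NHX9-21FGAA and G-NHX9-midi-21FGAA also did. Each other rise of an adult globin gene against Empty or G-NHX9 lost its call under at least 1 alternative, and the cause was not tested. The number of adult globin genes called was 1 in G-NHX9-21FGAA against Empty with no filter on low counts and in a fit to 2 conditions, 3 in G-NHX9-DDNA against Empty in a fit to 2 conditions, and 1 in G-NHX9-DDNA against G-NHX9 without TMM. With single libraries left out it ranged from 1 to 4 in G-NHX9-21FGAA and G-NHX9-midi-21FGAA against Empty, from 0 to 2 in G-NHX9-DDNA against Empty, from 0 to 3 in G-NHX9-21FGAA against G-NHX9 and from 0 to 4 in G-NHX9-DDNA against G-NHX9. Without the 7 libraries numbered 1 it was 4 in G-NHX9-21FGAA and G-NHX9-DDNA against Empty. Without the 3 libraries from mice over 8 weeks it was 1 in G-NHX9-21FGAA and G-NHX9-midi-21FGAA and 0 in G-NHX9-DDNA against Empty, and 1 and 0 in G-NHX9-21FGAA and G-NHX9-DDNA against G-NHX9. Both sets were chosen after seeing the data. Shares of all genes called were taken only in the unblocked TMM fit to all 35 libraries. The counts of calls in this section have no such share beside them.

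Against Empty and without TMM, which moved the median of all genes by up to 0.19 (log2), 8 globin transcription factors were called in G-NHX9, 9, 11 and 7 hemoglobin assembly genes in G-NHX9-21FGAA, G-NHX9-midi-21FGAA and G-NHX9-DDNA, and 18 erythroid genes in G-NHX9-DDNA. With no filter, 1 hemoglobin assembly gene was called in G-NHX9. With single libraries left out, the erythroid count ranged from 1 to 2 in G-NHX9, 11 to 21 in G-NHX9-21FGAA and 2 to 18 in G-NHX9-DDNA, and the hemoglobin assembly count from 1 to 4 in G-NHX9 and 5 to 9 in G-NHX9-midi-21FGAA. Without libraries numbered 1, 9 hemoglobin assembly genes were called in G-NHX9-midi-21FGAA and 20 erythroid genes in G-NHX9-DDNA. Without mice over 8 weeks, 2, 7, 10 and 1 erythroid genes were called in G-NHX9, G-NHX9-21FGAA, G-NHX9-midi-21FGAA and G-NHX9-DDNA, and 2 hemoglobin assembly genes in G-NHX9-DDNA.

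With Hba-a1 against Hbb-bs only, the alpha to beta log2 difference changed sign and was not significant: 0.33 and 0.42 for G-NHX9-8FA and G-NHX9-midi against Empty, 0.26 and 0.34 against G-NHX9, -0.47 for G-NHX9-midi-21FGAA against G-NHX9-midi and -0.41 for G-NHX9-21FGAA against G-NHX9-8FA. Without libraries numbered 1, where the exact test cannot go below 0.029 and no adjusted p passes, these 6 were -1.31, -2.60, -1.28, -2.56, 2.56 and 1.21. Without mice over 8 weeks G-NHX9-8FA against Empty was -1.37 and no longer passed. With single libraries left out, G-NHX9-21FGAA against G-NHX9-8FA ranged from 1.15 to 1.48 and G-NHX9-midi against G-NHX9-8FA from -1.74 to -1.12, which was -1.33 and passed with 10 added to each count.

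With the replicate block, 4 adult globin genes were called in G-NHX9-DDNA against G-NHX9, 1 in G-NHX9-21FGAA against Empty, where the numbers did not pair the libraries, 8 and 12 globin transcription factors in G-NHX9 and G-NHX9-DDNA against Empty, and 8 hemoglobin assembly genes in G-NHX9-midi-21FGAA against Empty. The block moved no other count of calls by over 1.5 times. Levels of Hba-a2 below about 1 CPM rest on few counts, and the split of reads between the copies limits every ratio of 2 copies.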
